A study of Mus musculus with 8 samples.

Results

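Elastin, the fibrillins, the fibulins and the proteins that bind them make up the elastic fibre, the recoil element of the extracellular matrix. The 10 genes described here are Eln, Fbn1, Fbn2, Fbln1, Fbln2, Fbln5, Efemp1 (fibulin 3), Efemp2 (fibulin 4), Emilin1 and Mfap4. They were taken by name, as the identifiers that map to these symbols, and no value entered that rule. The list was chosen with earlier results of these data known. The deposited table holds 55487 identifiers, of which 29066 had a count. All 10 genes had counts in every library and all 10 were among the 17636 genes tested.

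The samples were whole-heart RNA from mice in 4 groups of 2 libraries: wild type (WT) given saline, WT given isoproterenol, Set7KO given saline and Set7KO given isoproterenol. Isoproterenol stimulates beta-adrenergic receptors, and long dosing is a standard way to bring on cardiac hypertrophy and fibrosis. It was given under the skin at 60 mg/kg, and both treatments ran for 14 days. Set7KO mice lack Set7, the lysine methyltransferase encoded by Setd7, in the whole body and were bred by crossing heterozygotes, so the loss is not limited to a cell type. The sources used here do not give strain, age or sex. Whether the 2 libraries of a group come from different animals is not stated, so p-values speak only of the spread between these libraries, which may be technical. Replicate numbers 1 and 2 follow the order of the samples' accessions and only name the libraries.

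In an elastic fibre, a core of cross-linked elastin is laid on a scaffold of microfibrils built mainly of fibrillin. Fibulin 4 and fibulin 5 bring tropoelastin, its cross-linking lysyl oxidases and the microfibril together, and microfibrils also hold latent growth factors of the TGF-beta and BMP families. In the heart, elastic fibres lie in the coronary vessels, the valves, the endocardium and the interstitium. Fibroblasts, smooth muscle cells and endocardial cells are their known sources.

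The short fibulins Fbln5, Efemp1 and Efemp2 share a domain layout, and their levels over the 8 libraries are given below. In the sequences shown here, the GC box GGGCGG, on either strand, is in capitals. They are the 250 bases upstream of each gene's RefSeq start site (GRCm38.p6), 5′ to 3′ on the gene's strand. They lie at chr12:101819120-101819369 on the minus strand for Fbln5, at chr11:28852955-28853204 on the plus strand for Efemp1 and at chr19:5473696-5473945 on the plus strand for Efemp2.
Fbln5: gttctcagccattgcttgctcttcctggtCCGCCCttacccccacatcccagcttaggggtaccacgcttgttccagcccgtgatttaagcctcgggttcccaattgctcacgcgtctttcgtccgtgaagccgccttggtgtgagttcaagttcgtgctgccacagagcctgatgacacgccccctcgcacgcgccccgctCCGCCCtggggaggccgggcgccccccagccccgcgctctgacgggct
Efemp1: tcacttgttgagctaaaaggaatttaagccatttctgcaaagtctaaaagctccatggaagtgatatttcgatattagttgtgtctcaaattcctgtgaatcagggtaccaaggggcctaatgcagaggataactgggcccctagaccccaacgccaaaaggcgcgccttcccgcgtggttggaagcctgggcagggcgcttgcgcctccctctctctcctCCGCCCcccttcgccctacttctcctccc
Efemp2: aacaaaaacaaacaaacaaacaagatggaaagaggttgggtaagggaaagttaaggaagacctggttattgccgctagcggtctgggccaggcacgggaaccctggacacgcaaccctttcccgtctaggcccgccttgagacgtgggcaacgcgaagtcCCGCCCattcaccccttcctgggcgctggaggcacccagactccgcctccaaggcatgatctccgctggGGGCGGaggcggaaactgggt
The Fbln5 and Efemp2 windows held 2 GC boxes each and the Efemp1 window 1, and 32.7% of the 32817 RefSeq windows of the same length held at least 1. The Efemp1 window held 1 match to TGANTCA, searched on both strands, and the other two held none, against 6.75% of all windows. This pattern is looser than the AP-1 motif, which has C or G at its centre. The match in Efemp1 reads TGAATCA, with A there, so it is not a full AP-1 site. None of the 3 windows held TATAAA on either strand, against 12.4% of all windows. Such windows were taken for 7 of the 10 genes. Any link between the windows and the levels was not tested.

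The libraries held 27847069 to 51705705 counts, and 3 counts, taken as the floor, correspond to 0.0598 to 0.112 CPM (counts scaled to the normalised library size). Setd7 was at 42.96 to 72.6 CPM in the WT libraries and 3.79 to 5.70 CPM in the Set7KO libraries, 12.01-fold lower on average (log2 fold change -3.59 ± 0.18 (SE), edgeR adjusted p = 0.000356). Cardiomyocyte markers summed to 81876 to 125420 CPM, as the heart label has it, and 4 or 5 of the 5 lung markers were at 0 in each library. Set7KO saline replicate 2 stood apart: its erythroid markers summed to 10516 CPM against 1254 to 4349 CPM elsewhere. It also held the lowest value of 6 of the 10 fibroblast markers, against 17.6% of all genes tested. The other fibroblast markers were not lowest there. Dcn was at 256 CPM against 124 CPM in replicate 1, and Lum at 9.91 against 5.66 CPM. Pdgfra was at 24.8 against 24.2 CPM, and Mgp at 155 against 202 CPM. The libraries also differed in how level followed GC content. The median log2 deviation of the richest of 5 GC classes minus that of the poorest was 0.55 and 0.86 in WT saline, -1.08 and -0.78 in WT isoproterenol, 0.36 and -0.91 in Set7KO saline, and 0.19 and 0.64 in Set7KO isoproterenol. A GC trend in the RNA and one in the library preparation cannot be told apart here, so values from a fit with offsets for GC content and exonic length are also given below for a number of the differences. The titles carry code letters that the labels do not explain: A on both Set7KO isoproterenol libraries, D on both WT isoproterenol libraries, C on both WT saline libraries and on Set7KO saline replicate 2, and B on Set7KO saline replicate 1. Setd7 was at 5.70 CPM in Set7KO saline replicate 2, below every WT library.

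Per exonic length, the long fibulins were the most abundant of the 10 genes and Fbn2 the least. Mean levels over the 8 libraries, as CPM per kilobase of exon (RPKM), were 33.6 ± 7.22 (SD, n = 8) for Fbln1 and 29.2 ± 8.88 for Fbln2. Emilin1 at 13.8 ± 4.32 RPKM and Mfap4 at 12.3 ± 5.27 RPKM came next, followed by Fbn1 at 7.10 ± 2.56 RPKM and Eln at 5.34 ± 2.74 RPKM. Fbln5 was at 4.60 ± 1.08 RPKM, Efemp2 at 4.13 ± 1.28 RPKM, Efemp1 at 0.954 ± 0.331 RPKM and Fbn2 at 0.0969 ± 0.0559 RPKM. Neighbours within the pairs Fbln1 and Fbln2, Emilin1 and Mfap4, and the run Fbn1, Eln, Fbln5 and Efemp2 differed by less than either SD. The SDs span all 4 groups.

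**Figure D1:**
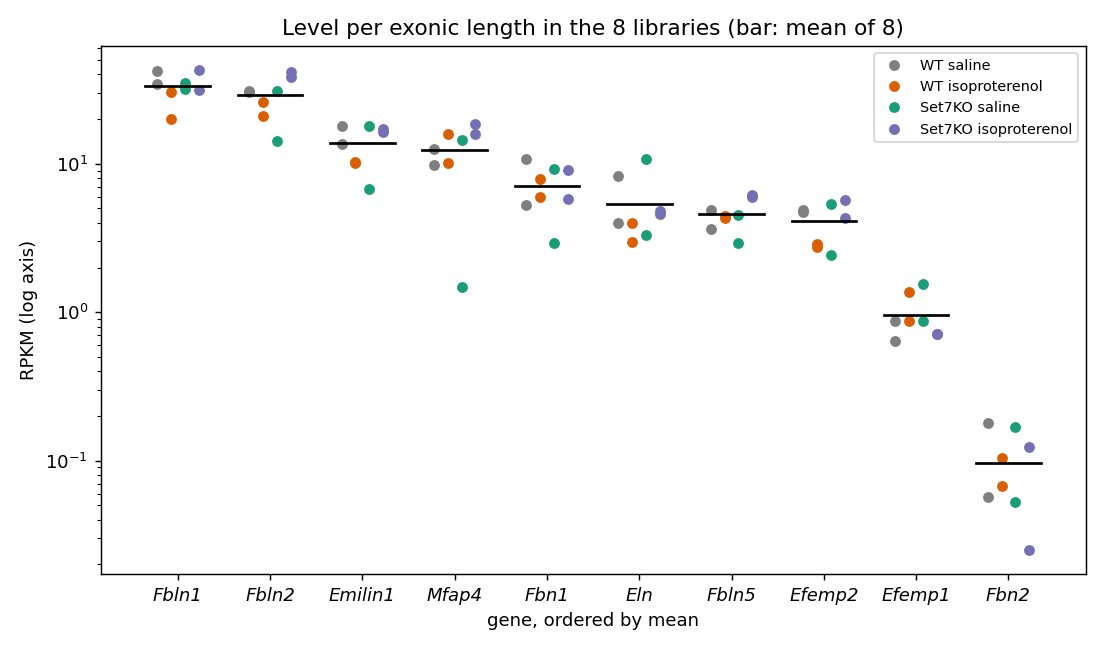
Level of each gene per exonic length (RPKM, log axis) in the 8 libraries, coloured by group, with a bar at the mean of 8. The means run from 33.6 RPKM for Fbln1 down to 0.0969 RPKM for Fbn2, and the single low Mfap4 point at 1.48 RPKM is Set7KO saline replicate 2.

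None of the 10 genes passed the threshold of 0.05 on the adjusted p in any of the 7 comparisons with edgeR, and DESeq2 and limma-voom also called 0 in each. The comparisons were isoproterenol against saline in each genotype and averaged over both, Set7KO against WT under each treatment and averaged over both, and the interaction, which is the Set7KO response minus the WT response. Comparisons that share a group are not independent of each other. In the plot of levels by library, the low values of Set7KO saline replicate 2 and the spread between saline replicates of Eln and Fbn1 can be read directly.

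**Figure D2:**
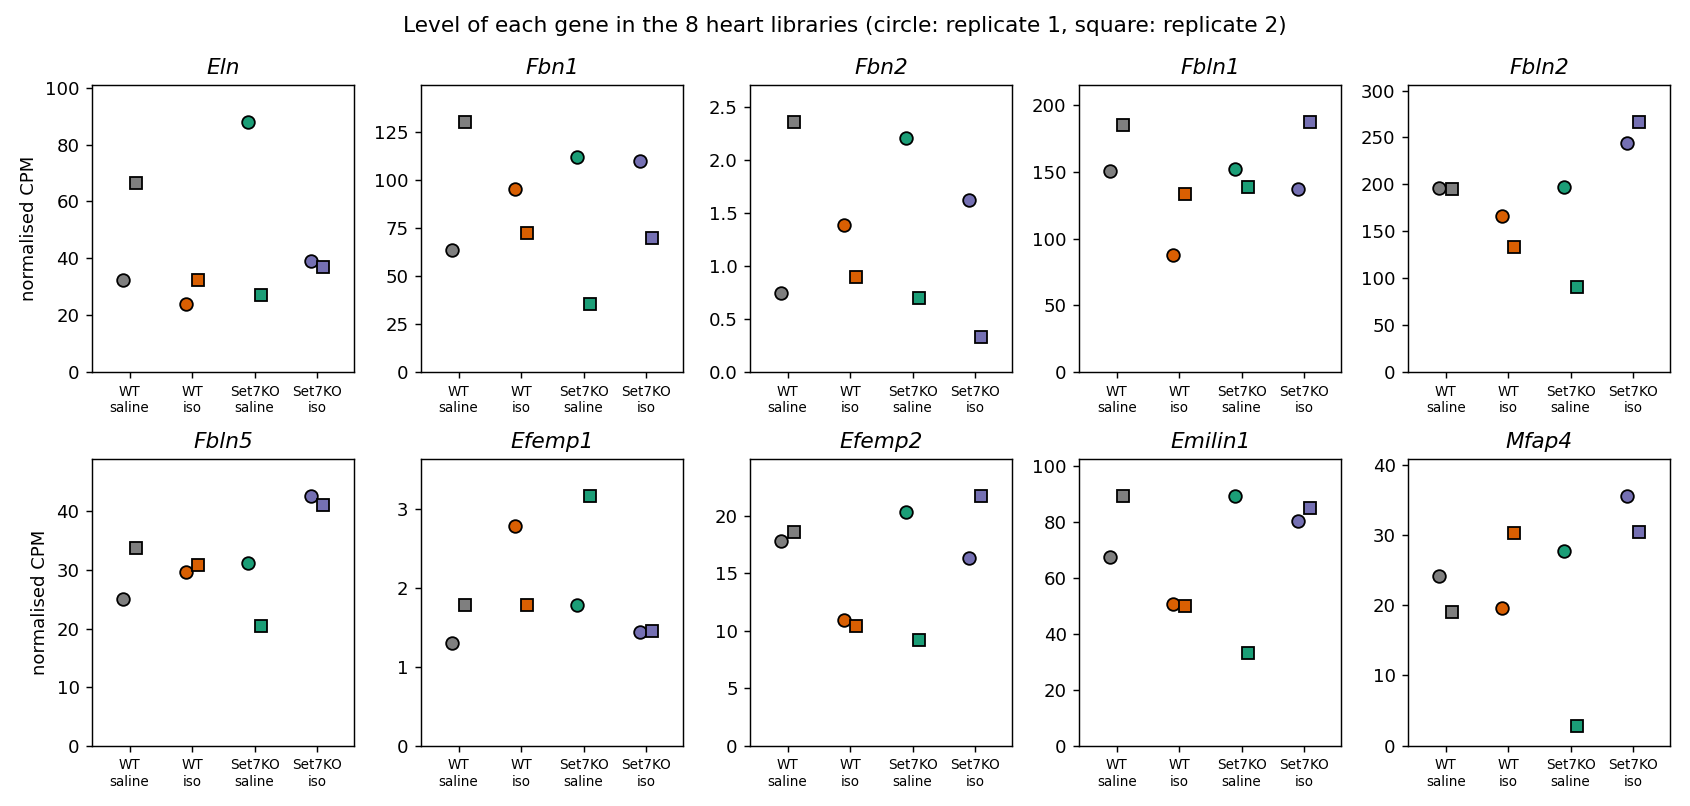
Normalised CPM of each gene in the 8 libraries by group, with circles for replicate 1, squares for replicate 2 and each axis starting at 0. Eln ranges from 24.0 to 87.8 CPM, and its lowest and highest values are WT isoproterenol replicate 1 and Set7KO saline replicate 1.

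Eln encodes tropoelastin, the soluble monomer of the elastic core. It lies at chr5:134702593-134747323 on the minus strand of GRCm38. Eln was at 32.3 and 66.5 CPM in WT saline, 24.0 and 32.5 CPM in WT isoproterenol, 87.8 and 26.9 CPM in Set7KO saline, and 39.2 and 37.0 CPM in Set7KO isoproterenol. Both saline groups held 1 high and 1 low library. The low WT library lay within the WT isoproterenol range, and the low Set7KO library lay below the Set7KO isoproterenol pair. The isoproterenol minus saline difference in Eln was a log2 fold change of -0.81 ± 0.53 (SE) in WT (95% interval -2.02 to 0.40, adjusted p = 0.301) and -0.59 ± 0.53 in Set7KO (-1.80 to 0.61, adjusted p = 0.734). Averaged over genotypes it was -0.70 ± 0.37 (-1.55 to 0.15, adjusted p = 0.604), or -0.52 with the GC and length offsets. That average was -0.16 without Set7KO saline replicate 1 and -1.01 without replicate 2. The Eln interaction was 0.22 (-1.48 to 1.92, adjusted p = 0.854) and -0.30 with offsets. Without Set7KO saline replicate 1 the Eln difference in Set7KO was 0.50 and without replicate 2 it was -1.20, so its sign depended on which of the pair was kept.

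Fbn1 encodes fibrillin 1, the main microfibril protein after birth, and Fbn2 encodes fibrillin 2, used mostly in development. Fbn1 (chr2:125300594-125507993, minus strand) was at 63.7 and 130.1 CPM in WT saline, 95.3 and 72.7 CPM in WT isoproterenol, 112.0 and 35.6 CPM in Set7KO saline, and 109.8 and 70.03 CPM in Set7KO isoproterenol. The WT isoproterenol pair lay inside the WT saline pair, and the Set7KO isoproterenol pair inside the Set7KO saline pair. The Fbn1 log2 fold change with isoproterenol was -0.21 (-1.43 to 1.01) in WT, 0.29 (-0.94 to 1.51) in Set7KO and 0.04 (-0.82 to 0.90) on average. Fbn2 rested on 9 to 71 counts per library and was at 0.746 and 2.35 CPM in WT saline, 1.38 and 0.895 CPM in WT isoproterenol, 2.21 and 0.698 CPM in Set7KO saline, and 1.63 and 0.329 CPM in Set7KO isoproterenol. The libraries of a group differed 1.55-fold to 4.94-fold. The average Fbn2 difference had an interval of -1.83 to 0.86 on the log2 scale, too wide to show a difference at this depth.

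Fbln5 encodes fibulin 5, which tethers tropoelastin to the cell surface and microfibril. It lies at chr12:101746565-101819055 on the minus strand. Fbln5 was at 25.0 and 33.8 CPM in WT saline, 29.6 and 30.8 CPM in WT isoproterenol, 31.2 and 20.4 CPM in Set7KO saline, and 42.6 and 41.1 CPM in Set7KO isoproterenol. Both Set7KO isoproterenol libraries lay above the other 6. The Fbln5 log2 fold change with isoproterenol was 0.70 ± 0.26 in Set7KO (0.09 to 1.31, adjusted p = 0.498) and 0.04 ± 0.26 in WT (-0.57 to 0.64). The Fbln5 interaction was 0.66 (-0.19 to 1.52, adjusted p = 0.245). With offsets the WT difference became -0.52, the Set7KO difference 0.87 and the interaction 1.39, and none passed. The Set7KO difference was 0.43 and the interaction 0.40 without Set7KO saline replicate 2, and 1.04 and 1.00 without replicate 1, with none past the threshold.

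Efemp2 encodes fibulin 4, which activates lysyl oxidase on the growing fibre. Its locus, chr19:5473954-5482517 on the plus strand, overlaps Mus81 on the other strand, which had 1039 to 1702 counts per library. The kit keeps strand, but the sources used here do not give the strand setting of the counting. Efemp2 was at 17.8 and 18.6 CPM in WT saline, 10.9 and 10.4 CPM in WT isoproterenol, 20.3 and 9.17 CPM in Set7KO saline, and 16.3 and 21.7 CPM in Set7KO isoproterenol. Both WT isoproterenol libraries and Set7KO saline replicate 2 were low, and these are the 3 libraries with a negative GC trend. The Efemp2 log2 fold change with isoproterenol in WT was -0.77 ± 0.36 (-1.60 to 0.06, adjusted p = 0.179), and -0.43 with offsets. Fitted to the 4 WT libraries alone it was -0.77 with an adjusted p of 0.0256 (edgeR), in a fit where 5043 genes passed. With offsets Efemp2 did not pass in those libraries. Without Set7KO saline replicate 1 or 2 the WT difference was -0.78 or -0.79. Set7KO minus WT under isoproterenol was 0.83 ± 0.36 for Efemp2 (0.00 to 1.67, adjusted p = 0.250), and 0.57 with offsets.

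Efemp1 encodes fibulin 3, which is known from fascia and basement membranes more than from elastic fibres of vessels. It lies at chr11:28853204-28926743 on the plus strand and rested on 35 to 159 counts. Efemp1 was at 1.31 and 1.79 CPM in WT saline, 2.79 and 1.79 CPM in WT isoproterenol, 1.79 and 3.17 CPM in Set7KO saline, and 1.45 and 1.46 CPM in Set7KO isoproterenol. It was the only one of the 10 genes that was highest in Set7KO saline replicate 2, and its transcript has the lowest GC content of the 10 (44.9%). The Efemp1 interaction was -1.34 ± 0.57 (-2.64 to -0.04, adjusted p = 0.156), opposite in sign to Efemp2 at 1.14 (-0.03 to 2.31, adjusted p = 0.170). With offsets the Efemp1 interaction was -0.16 and its WT isoproterenol difference went from 0.57 to -0.20.

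Fbln1 and Fbln2 encode the long fibulins, found in valves, vessel walls and basement membrane zones. Fbln1 (chr15:85205949-85286535, plus strand) was at 150.6 and 185.3 CPM in WT saline, 87.8 and 133.6 CPM in WT isoproterenol, 152.2 and 138.6 CPM in Set7KO saline, and 137.6 and 187.3 CPM in Set7KO isoproterenol. Both WT isoproterenol libraries were below the other 6. The Fbln1 log2 fold change with isoproterenol in WT was -0.60 ± 0.27 (-1.22 to 0.02, adjusted p = 0.166), and -0.24 with offsets.

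Fbln2 (chr6:91212455-91272540, plus strand) was at 196.6 and 195.1 CPM in WT saline, 166.5 and 132.9 CPM in WT isoproterenol, 197.6 and 90.6 CPM in Set7KO saline, and 243.7 and 266.1 CPM in Set7KO isoproterenol. Both Set7KO isoproterenol libraries were above the other 6, both WT isoproterenol libraries were below the WT saline pair, and Set7KO saline replicate 2 was the lowest of all. The Fbln2 log2 fold change with isoproterenol was -0.39 ± 0.34 in WT (adjusted p = 0.432) and 0.82 ± 0.34 in Set7KO (0.05 to 1.60, adjusted p = 0.513). The Fbln2 interaction was 1.21 ± 0.48 (0.11 to 2.31, adjusted p = 0.141), and 0.66 with offsets. Without Set7KO saline replicate 2 the Set7KO difference was 0.37 and the interaction 0.77. Without replicate 1, which leaves the low library alone in its group, they were 1.49 and 1.88.

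Emilin1 encodes a glycoprotein at the border of elastin and microfibrils that also restrains TGF-beta processing. It lies at chr5:30913402-30921277 on the plus strand, and its transcript is at the 97.5th percentile of GC content among genes tested. Emilin1 was at 67.6 and 89.3 CPM in WT saline, 50.9 and 50.1 CPM in WT isoproterenol, 89.3 and 33.3 CPM in Set7KO saline, and 80.3 and 85.3 CPM in Set7KO isoproterenol. Like Efemp2, it was low in both WT isoproterenol libraries and in Set7KO saline replicate 2. The Emilin1 log2 fold change with isoproterenol in WT was -0.64 ± 0.40 (-1.56 to 0.29, adjusted p = 0.287) and -0.04 with offsets. In the 4 WT libraries alone it passed without offsets (-0.63, edgeR adjusted p = 0.0416), in a fit where 5043 genes passed, and not with offsets. The Emilin1 interaction was 1.07 (-0.23 to 2.37, adjusted p = 0.224) and 0.34 with offsets. In Set7KO its difference with isoproterenol was 0.43 (adjusted p = 0.744). It was -0.11 without Set7KO saline replicate 2 and 1.31 without replicate 1.

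Mfap4 encodes a fibrinogen-domain protein that binds fibrillin, elastin and integrins. Its locus, chr11:61485431-61488900 on the plus strand, overlaps Mapk7 on the other strand, which had 369 to 489 counts per library. Mfap4 was at 24.1 and 19.0 CPM in WT saline, 19.6 and 30.3 CPM in WT isoproterenol, 27.8 and 2.85 CPM in Set7KO saline, and 35.5 and 30.4 CPM in Set7KO isoproterenol. Set7KO saline replicate 2 was 9.74-fold below its partner, the widest gap between replicates among the 10 genes, and rested on 143 counts. The Mfap4 log2 fold change with isoproterenol in Set7KO was 1.11 ± 0.79 (-0.68 to 2.91, adjusted p = 0.670). It was 0.25 without Set7KO saline replicate 2 and 3.53 without replicate 1. Averaged over genotypes it was 0.66 (edgeR adjusted p = 0.695), 1.87 without replicate 1 and 0.22 without replicate 2. With offsets no member passed averaged over genotypes, also not without replicate 1.

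No member passed with isoproterenol in either genotype, and the direction counts of the group moved with single libraries. In WT, 7 of 10 were lower, with a median log2 fold change of -0.42 against 0.06 over all genes tested. With offsets the medians were -0.22 and -0.04, and without WT saline replicate 2, 5 of 10 were lower and the median was -0.11. In Set7KO, 7 of 10 were higher, with a median of 0.33 against -0.04 over all genes. Without Set7KO saline replicate 2, 6 of 10 were lower there, with a median of -0.10 against 0.00, and without replicate 1, 9 of 10 were higher, with a median of 1.04. Averaged over genotypes the median was -0.10 against 0.02. The share of all genes past the adjusted threshold was 0.051% averaged over genotypes, 0% in WT and 0% in Set7KO. At an unadjusted p under 0.05, 0 members passed averaged over genotypes, 0 in WT and 2 in Set7KO (Fbln2 and Fbln5), against 9.4%, 31.7% and 9.66% of all genes.

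In WT, 4 members (Fbln1, Fbln2, Efemp2 and Emilin1) were lower without overlap between the pairs and 0 were higher, where 33.4% of all genes were lower and 39.3% higher in that way. The lower share of 4 in 10 was near that background. In Set7KO, 3 members (Fbln2, Fbln5 and Mfap4) were higher without overlap and 1 (Efemp1) was lower, against 16% and 18.7% of all genes. Averaged over genotypes no member separated all 4 isoproterenol from all 4 saline libraries, against 2.11% of genes higher and 2.01% lower.

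**Figure D3:**
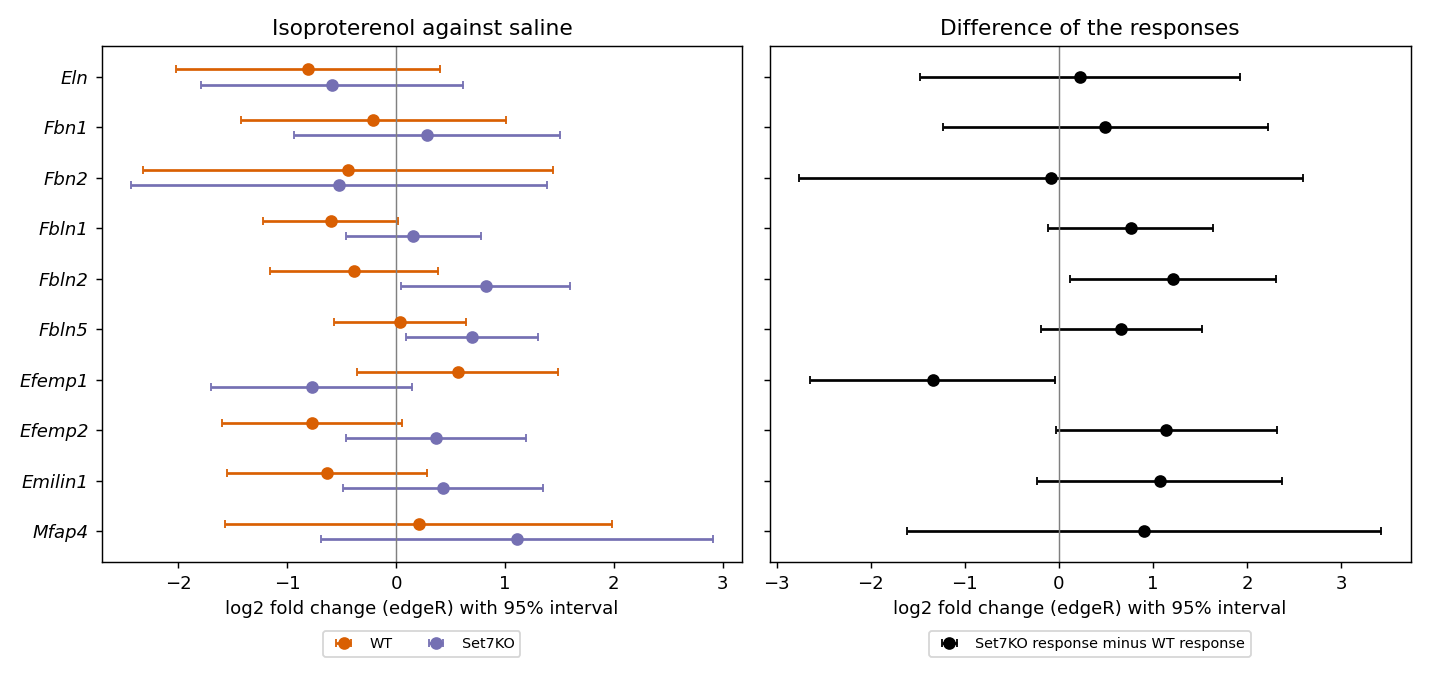
Log2 fold change of each gene with its 95% interval from the edgeR fit, for isoproterenol against saline in WT and in Set7KO (left) and for the Set7KO response minus the WT response (right). The intervals of Fbln2 and Fbln5 in Set7KO and of Fbln2 and Efemp1 in the difference lie off 0 before adjustment, and none passed after it.

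Under isoproterenol, 8 of the 10 members were higher in Set7KO than in WT, with a median log2 difference of 0.45 against -0.05 over all genes tested, and 0.23 with offsets. Eln, Fbln1, Fbln2, Fbln5, Efemp2, Emilin1 and Mfap4 were higher in both Set7KO libraries than in both WT libraries and Efemp1 was lower, so 7 and 1 of 10 separated, against 31.8% and 36.3% of all genes. Without offsets the largest difference was that of Efemp2 (0.83), followed by Fbln2 at 0.77 ± 0.34 (-0.01 to 1.54, adjusted p = 0.254). With offsets Fbln5 was at 1.00, Efemp2 at 0.57 and Fbln2 at 0.47. Without offsets only Efemp2 had an unadjusted p under 0.05, against 19.9% of all genes, and 0.00567% of genes passed after adjustment. Under saline, 8 of 10 members were lower in Set7KO (median -0.26 against 0.02, or -0.10 against -0.05 with offsets), from -0.50 for Mfap4 to 0.68 for Efemp1. When Set7KO saline replicate 2 was left out, 9 of 10 were higher instead, with a median of 0.22, and without WT saline replicate 2, 5 of 10 were higher. Without Set7KO saline replicate 1, Fbln2, Emilin1 and Mfap4 were at -1.11, -1.24 and -2.92 there. Without replicate 2 they were at 0.04, 0.21 and 0.39. With both libraries none separated there, against 19.6% of genes higher and 18.3% lower, and none had an unadjusted p under 0.05, against 10.3%, with 0.00567% past the adjusted threshold. Averaged over treatments the members ran from -0.16 for Fbn2 to 0.32 for Eln, with an interval for Eln of -0.53 to 1.17. None separated, against 0.289% higher and 0.267% lower, none passed unadjusted, against 1.56%, and 0.00567% of genes passed after adjustment.

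The interaction was positive for 8 of 10 members, with a median of 0.71 against -0.05 over all genes tested, and 0.41 against 0.09 with offsets. It was positive for 6 of 10 without Set7KO saline replicate 2, with a median of 0.23, and without replicate 1 for 9 of 10, with a median of 1.43. Fbln2 and Efemp1 had an unadjusted p under 0.05, 2 of 10 members against 30.6% of all genes, and 0% of genes passed after adjustment. Efemp2 at 1.14, Emilin1 at 1.07, Mfap4 at 0.90, Fbln1 at 0.76, Fbln5 at 0.66 and Fbn1 at 0.49 followed Fbln2 in size. Without Set7KO saline replicate 1, which leaves the low library alone in its group, Fbln2 was at 1.88 and Efemp1 at -1.68. Efemp2, Emilin1 and Mfap4 were then at 1.83, 1.95 and 3.32. In the same order they were at 0.77, -0.85, 0.69, 0.54 and 0.06 without replicate 2.

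In the plot of the WT response against GC content, the offsets moved the GC-rich members up and the GC-poor members down. Emilin1, at 61.1% GC, went from -0.64 to -0.04, Eln at 58.8% from -0.81 to -0.37 and Fbln2 at 57.0% from -0.39 to 0.06. Fbln5, at 46.9%, went from 0.04 to -0.52 and Efemp1, at 44.9%, from 0.57 to -0.20. Fbn1, at 52.3%, stayed at -0.21. Mfap4 (53.6%) went from 0.21 to 0.52.

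**Figure D4:**
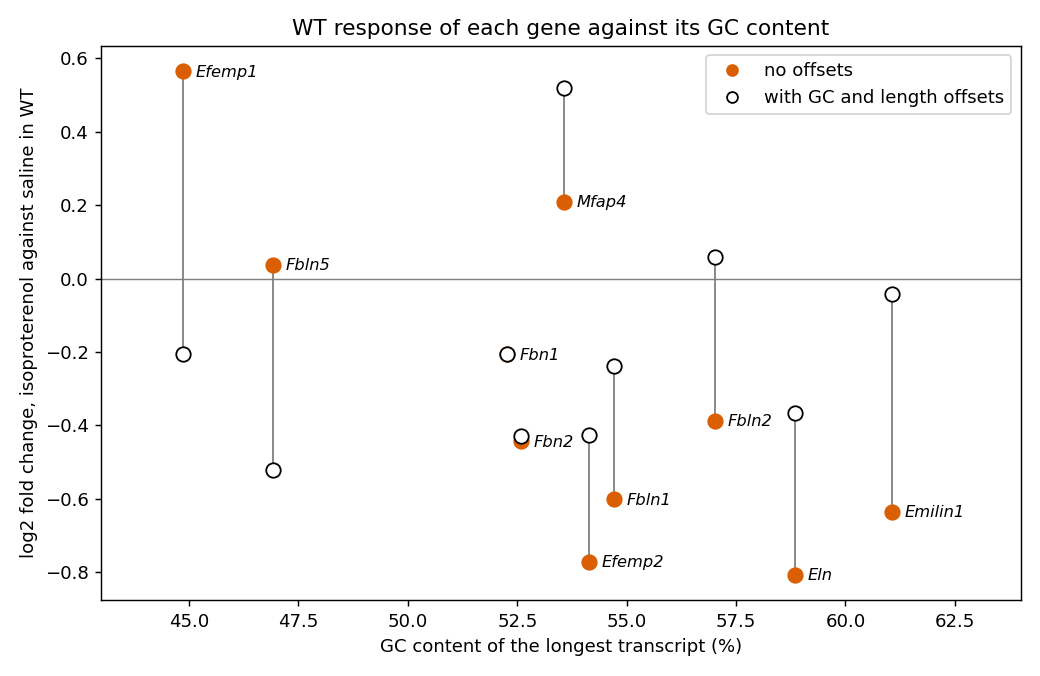
Log2 fold change of isoproterenol against saline in WT for each gene (vertical) against the GC content of its longest transcript in percent (horizontal), without offsets (filled) and with GC and length offsets (open). The filled points run from 0.57 for Efemp1 at 44.9% GC to -0.81 for Eln at 58.8% GC, and the open points from 0.52 for Mfap4 to -0.52 for Fbln5.

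In bulk heart RNA, fewer cells of a type and less RNA per cell cannot be told apart, so the members were set beside marker genes. The 10 fibroblast markers, all above the floor in every library, summed to 3743 and 4387 CPM in WT saline, 3245 and 3753 CPM in WT isoproterenol, 4137 and 1923 CPM in Set7KO saline, and 4731 and 6138 CPM in Set7KO isoproterenol. Gsn made up 62.5% to 80.2% of that sum. The members summed to 580 and 742 CPM, 489 and 496 CPM, 722 and 361 CPM, and 708 and 741 CPM in the same order. Both sums were lowest in Set7KO saline replicate 2, where 6 of the 10 members had their lowest value, against 17.6% of all genes tested. The part of the fibroblast markers in the results was not tested.

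Per 1000 CPM of fibroblast markers, Fbln2 ran from 35.4 to 52.5 CPM, a 1.48-fold range, where its CPM had a 2.94-fold range. The range of Emilin1 narrowed from 2.69-fold to 1.62-fold, that of Efemp2 from 2.37-fold to 1.77-fold and that of Fbln5 from 2.09-fold to 1.58-fold. The range of Eln stayed at 3.52-fold, and those of Fbn2, Efemp1 and Fbln1 widened to 9.998-fold, 6.91-fold and 2.66-fold. Mfap4 was still lowest in Set7KO saline replicate 2, at 1.48 against 4.32 to 8.08 CPM per 1000 elsewhere. Without Gsn in the sum the ranges were 1.81-fold for Fbln2, 2.11-fold for Emilin1, 2.19-fold for Efemp2 and 1.39-fold for Fbln5. The other members had wider ranges on that scale. They were 2.46-fold for Fbn1, 2.82-fold for Fbln1, 3.90-fold for Eln, 4.42-fold for Efemp1, 6.62-fold for Mfap4 and 8.57-fold for Fbn2.

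Of the other marker lists, smooth muscle (9 of 9 genes above the floor) summed to 3321 to 4948 CPM, of which Des, which cardiomyocytes also express, made up 83.3% to 87.4%. Without Des the smooth muscle sum was 433 CPM in Set7KO saline replicate 2 and 537 to 752 CPM elsewhere. Endocardial markers summed to 149 to 290 CPM and endothelial markers to 1366 to 2002 CPM, with none at 0. Pericyte markers summed to 640 to 893 CPM and macrophage markers to 241 to 443 CPM. Activated fibroblast markers, with 1 and 2 of 7 at 0 in WT saline, summed to 30.6 and 36.2 CPM in WT saline, 77.4 and 58.9 CPM in WT isoproterenol, 55.2 and 19.4 CPM in Set7KO saline, and 80.2 and 47.9 CPM in Set7KO isoproterenol. Valve and cartilage-like markers summed to 3.93 to 16.3 CPM, with Hapln1 and Tnmd at 0 in every library. Atrial markers summed to 2653 CPM in WT saline replicate 1 and 238 to 832 CPM elsewhere. Lymphocyte, epicardial and adipocyte markers summed to 1.33 to 11.3, 2.61 to 5.19 and 0 to 6.52 CPM, lowest for lymphocytes in WT isoproterenol.

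**Figure D5:**
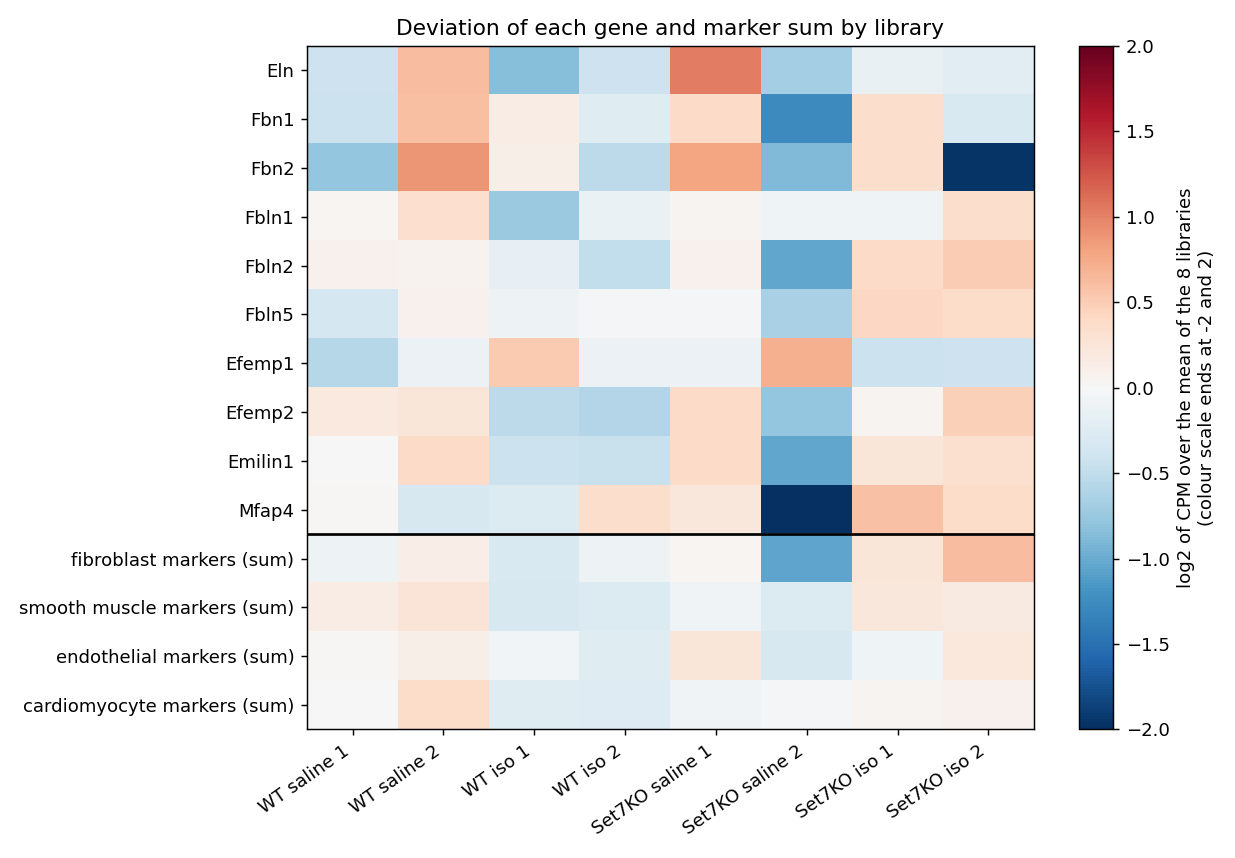
Log2 of each library's CPM over the mean of the 8 libraries, for the 10 genes and for the summed markers of 4 cell types, with the colour scale ending at -2 and 2. The column of Set7KO saline replicate 2 is low for the fibroblast markers and for each gene but Efemp1, with Fbln1 close to its mean.

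Members with the most similar profiles over the 8 libraries were Efemp2 and Emilin1, with a root mean square difference of 0.321 SD between profiles scaled to their own mean and SD. Fbln2 followed, at 0.401 SD from Emilin1 and 0.483 SD from Efemp2. Efemp1 was at least 1.27 SD from every other member. Among 9085 or 9086 genes with a mean of at least 5 CPM, those most like Eln were Dapk2 (0.212 SD), Gas7 and Rftn2, and those most like Fbn1 were Cap1 (0.185 SD), St6gal1 and Aplnr. Uck2, Prdm16 and Ttf2 were most like Fbn2, and Kars, Slco2b1 and Rdm1 most like Fbln1. For Fbln2 they were Ace (0.138 SD), Cyb5r3 and Srpx2, and for Fbln5 Ift46, Slc46a1 and Fam78a. For Efemp1 they were the mitochondrial genes Ndufs4 (0.267 SD), Hspd1 and Atp5j. For Efemp2 they were Ctsz (0.0828 SD), Rnf220 and Mettl26, for Emilin1 Tmc6, Mfng and Elovl1, and for Mfap4 Tmem119 (0.182 SD), Matn2 and Gemin4. The median distance to all candidates was 1.26 to 1.40 SD. The profiles share the same 8 libraries and their GC trends.

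Elastic fibre partners, the proteins that bind, cross-link or extend the fibre, showed 0 of 31 tested genes past the threshold in either direction in each of the 7 comparisons. Averaged over genotypes, 22 of 31 were higher with isoproterenol (median log2 fold change 0.25 against 0.02 over all genes), and at an unadjusted p under 0.05 there were 4 higher and 1 lower, 5 of 31, against 9.4% of all genes. The smallest p were those of the lysyl oxidase-like gene Loxl4 (0.86), the microfibril gene Mfap5 (0.61) and the fibulin family member Hmcn1 (0.57), with adjusted p of 0.323, 0.402 and 0.435. For Set7KO against WT the values were Vcan -0.52, Loxl4 -0.44 and Mfap2 0.43. In the interaction they were Adamts6 -3.03, Hmcn1 -2.46 and Mmrn1 -2.45, with adjusted p of 0.0964, 0.0876 and 0.0876. With offsets these 3 interactions were -1.45, -1.48 and -0.79. Adamts6 and Mmrn1 had means of only 1.60 and 1.12 CPM. At an unadjusted p under 0.05 (edgeR) the interaction had 5 higher and 5 lower of the 31 partners, near the 30.6% of all genes. Hmcn1 was at 12.99 and 8.29 CPM in WT saline, 34.4 and 39.6 CPM in WT isoproterenol, 20.1 and 29.1 CPM in Set7KO saline, and 16.6 and 14.4 CPM in Set7KO isoproterenol.

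Elastin-degrading proteases and their inhibitors had 0 of 14 tested genes past the threshold in each comparison. With isoproterenol on average, the values were 0.70 for Ctsk, which encodes cathepsin K, 0.67 for Timp3 and -0.43 for Ctss, which encodes cathepsin S. For Set7KO they were Mmp9 1.82, Timp1 0.41 and Ctss 0.31. Mmp9, a gelatinase of neutrophils and macrophages, was at 8.85 CPM in Set7KO saline replicate 2 and 0.375 to 3.00 CPM elsewhere. In the interaction they were Timp2 0.85, Ctsd 0.79 and Mmp3 -1.50, or 0.45, 0.18 and -0.53 with offsets.

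Elastic fibre receptors had 0 of 13 tested genes past the threshold in each comparison. Lgals3, which encodes galectin 3, was at 5.30 and 6.17 CPM in WT saline, 25.1 and 9.06 CPM in WT isoproterenol, 5.33 and 6.08 CPM in Set7KO saline, and 34.7 and 24.4 CPM in Set7KO isoproterenol. All 4 isoproterenol libraries were above all 4 saline libraries, as for 2.11% of all genes tested. Its average log2 fold change was 1.97 ± 0.32 (1.24 to 2.70), with an adjusted p of 0.0973, and 2.12 with offsets. Itga8 was at 1.37 (adjusted p = 0.190) and Itga9 at -0.47. For Set7KO the values were Itga8 -0.40, Itga9 -0.36 and Itgb3 0.33. In the interaction the integrin genes Itgav, Itgb5 and Itgb1 were at -1.67, 1.01 and -0.99, and at -0.08, 0.33 and 0.15 with offsets.

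Growth factors held by microfibrils had 0 of 9 tested genes past the threshold in each comparison. With isoproterenol on average, Bmp4 was at 0.54, Tgfb2 at 0.42 and Bmp7 at -0.36. For Set7KO, Bmp7 was at -0.26, Bmp4 at -0.22 and Tgfb2 at -0.20. In the interaction Tgfb1 was at 1.27 (adjusted p = 0.167), Tgfb2 at -0.81 and Tgfb3 at 0.72, and at 1.06, -0.12 and 0.42 with offsets. The list medians averaged over genotypes were 0.12 for proteases, -0.11 for receptors and 0.29 for growth factors, against 0.02 over all genes.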

How the data were processed

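Whole-heart RNA was sequenced in 8 libraries, per the labels' protocols with the stranded TruSeq mRNA kit on a NextSeq instrument. The authors deposited whole-number counts per gene. GRCm38 and the tools HISAT2, HISAT, StringTie and edgeR appear in the submitters' processing notes, without versions or roles. GENCODE M21 named 55227 of 55487 identifiers and gave lengths and GC content.

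All 8 libraries entered 1 model with a mean per group in edgeR 4.0.16 (R 4.3.3; TMM, filterByExpr, quasi-likelihood F-tests, two-sided), leaving 4 residual and 4.36 prior degrees of freedom. P-values were adjusted by Benjamini-Hochberg over 17636 genes in each of 7 contrasts. Standard errors come from the F statistic. SEs and 95% intervals cover the spread between these libraries only. The members, lists and tests were chosen with earlier results of these data known. All 10 members are named, with Setd7. From each pathway list every gene past the threshold and the 3 smallest p-values at a mean of at least 1 CPM in 3 contrasts are named, and for each member the 3 genes of closest profile (log2 CPM, prior count 2). Lgals3, Hmcn1 and Mmp9 levels are printed because their values stood out.

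Alternatives were size factors of DESeq2, upper quartile, no filter or 1 CPM in 2 libraries, DESeq2 1.42.0, limma-voom (limma 3.58.1), robust fits, library offsets built from splines of GC content and exonic length (5 degrees of freedom each), each library left out, and the compared groups alone. The last with offsets was added after seeing the data. The procedure was run on simulated counts with known changes and a single spread setting for all genes. The simulation held no GC trend and no library that stood apart, so it does not speak to either.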

Additional observations from a re-analysis of the deposited data

Results flagged for a closer look

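Fbln2 differed in sign between the 2 genotypes: both WT isoproterenol libraries lay below both WT saline libraries, and both Set7KO isoproterenol libraries lay above both Set7KO saline libraries. The difference of the responses was 1.21 on the log2 scale. It did not pass the test of the difference (edgeR adjusted p = 0.141). With GC and length offsets the WT difference was 0.06 and the difference of the responses 0.66. Without offsets, the difference of the responses was 0.77 without Set7KO saline replicate 2. It was 1.88 without replicate 1, which leaves the low library alone in its group.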

How the results depend on the processing

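The 70 fold changes of the 10 genes were recomputed 1339 times: 1204 kept their direction and side of the threshold, 117 changed sign and 18 newly passed. No call could be lost, since none of the 70 passed in the main fit. With all 8 libraries, 0 genes of the 10 passed under any normalization, filter, test or offset tried. In WT 2 passed in the 4 WT libraries alone, and leaving out 1 library gave 0 to 1 averaged over genotypes, 0 to 1 in WT, 0 to 3 in Set7KO, 0 to 3 under saline and 0 to 5 for the interaction. The highest counts came without Set7KO saline replicate 1, and in WT also without replicate 2. With offsets as well, 2 (Fbln5 and Mfap4) passed the interaction.

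Over all genes, calls averaged over genotypes, in WT, in Set7KO, for Set7KO averaged, under saline, under isoproterenol and for the interaction were 159, 1512, 31, 2, 19, 3 and 1686 without a filter and 251, 2683, 101, 2, 18, 241 and 2274 with DESeq2. They were 14 with limma-voom averaged over genotypes, and 3 in WT with DESeq2 size factors, with the 1 CPM filter or with offsets. The compared groups alone gave 5043 in WT, 0 under saline and 1303 under isoproterenol, and with offsets 0 under saline and 2 under isoproterenol. Leaving out 1 library gave 0 to 42, 0 to 3765, 0 to 486, 1 to 2, 0 to 1030, 0 to 2 and 0 to 5778. The cause was not tested.

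With offsets the sign changed for Emilin1 averaged over genotypes (0.13), Fbln2 (0.06), Fbln5 (-0.52) and Efemp1 (-0.20) in WT, Fbln1 under saline (0.04) and the Eln interaction (-0.30). In the compared groups alone with offsets, Fbln2 was at 0.07, Fbln5 at -0.52 and Efemp1 at -0.20 in WT, and Fbln1 at 0.05 under saline. Fbln5 in WT was at -0.01 with DESeq2 and with its size factors. Where a sign changed on leaving out 1 library (the Set7KO saline libraries also with offsets), the lowest and highest log2 fold changes follow. For isoproterenol averaged over genotypes they were -0.27 to 0.56 for Fbn1, -1.28 to 0.03 for Fbn2, -0.02 to 0.56 for Fbln2, -0.03 to 0.54 for Fbln5, -0.35 to 0.13 for Efemp1, -0.44 to 0.16 for Efemp2 and -0.38 to 0.35 for Emilin1. In WT they were -0.64 to 0.36 for Fbn1, -1.04 to 0.58 for Fbn2, -0.56 to 0.07 for Fbln2, -0.53 to 0.23 for Fbln5, -0.23 to 0.84 for Efemp1 and -0.14 to 0.51 for Mfap4. In Set7KO they were -1.20 to 0.50 for Eln, -0.33 to 1.34 for Fbn1, -2.11 to 0.51 for Fbn2, -0.12 to 0.36 for Fbln1, -0.09 to 1.05 for Efemp2 and -0.11 to 1.31 for Emilin1. For Set7KO averaged over treatments they were -0.22 to 0.67 for Eln, -0.67 to 0.24 for Fbn1, -0.91 to 0.39 for Fbn2, -0.17 to 0.42 for Fbln2, -0.03 to 0.51 for Fbln5, -0.19 to 0.19 for Efemp1, -0.08 to 0.53 for Efemp2, -0.26 to 0.48 for Emilin1 and -1.26 to 0.42 for Mfap4. Under saline they were -0.88 to 0.95 for Eln, -1.45 to 0.30 for Fbn1, -1.16 to 0.94 for Fbn2, -0.35 to 0.17 for Fbln1, -1.11 to 0.10 for Fbln2, -0.98 to 0.11 for Fbln5, -0.09 to 1.03 for Efemp1, -0.99 to 0.18 for Efemp2, -1.24 to 0.29 for Emilin1 and -2.92 to 0.39 for Mfap4. Under isoproterenol they were -0.22 to 0.39 for Fbn1 and -1.75 to 0.51 for Fbn2. For the interaction they were -0.78 to 1.31 for Eln, -0.12 to 1.55 for Fbn1, -1.66 to 0.96 for Fbn2, -1.68 to 0.03 for Efemp1 and -0.16 to 3.32 for Mfap4.

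No paired analysis was possible because the labels give no replicate numbers. With 2 libraries a group, a library left alone in its group takes its spread from the others. Fbn2 and Efemp1 rest on the fewest counts.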

Other observations

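Ratios of Eln counts to those of each other member were examined within libraries after their values were seen, since a ratio within a library does not depend on its total. Eln per Fbln5 was 1.29 to 2.82 in the 4 saline libraries and 0.811 to 1.05 in the 4 isoproterenol libraries, without overlap. Eln per Mfap4 was 1.34 to 9.45 and 1.07 to 1.23, also without overlap. The 9.45 is from Set7KO saline replicate 2, where Mfap4 rests on 143 counts, and the other saline libraries reached 3.51. Of the 9 ratios, these 2 separated the treatments. They are given as a description with no test, since they were picked from the 9 by their values. How often ratios of other genes separate the treatments was not examined, so the count has no background beside it. Eln per Fbn1 was 0.507 and 0.511 in WT saline, 0.252 and 0.447 in WT isoproterenol, 0.784 and 0.757 in Set7KO saline, and 0.357 and 0.528 in Set7KO isoproterenol. The Set7KO saline pair, which differed 3.26-fold in Eln CPM and 3.15-fold in Fbn1 CPM, held nearly the same ratio of both genes. The GC contents of Eln and Fbln5 are 58.8% and 46.9%, and the part of the GC trend in these ratios was not tested.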
